A study of Mus musculus with 54 samples.

Results

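MicroRNAs were compared between 2 populations of cells sorted from the small intestine of C57BL/6J mice, labelled Lgr5-High (2 libraries) and Cd24-Low (4 libraries). The members are the plain-named microRNA rows, whose names carry no added suffix and whose mean over the 6 libraries was at least 50 RPMMM. They number 139 of the 635 plain-named rows and 2602 rows of the deposited small RNA table, and 122 distinct mature names once copies of one name are counted together. RPMMM is the unit of that table, read here as reads scaled to a fixed total of microRNA reads, and each library's rows sum to between 999994 and 1000000. The members held between 93.1% and 93.4% of each library. The series as a whole holds 54 samples in 16 groups and centres on miR-375 in the crypts of the intestine.

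For comparison, libraries of the same table are cited from dissected crypts, dissected villi and cells sorted by a Sox9-EGFP reporter (Low or Negative). These sorted cells came from mice labelled as chow-fed (Low and Negative cells), conventionalized or germ-free (Low cells). All libraries cited are C57BL/6J by their labels. In each of the chow groups, the column name of 1 of the 4 libraries carries HFD in place of chow, against its label. No genotype beyond the strain, treatment, age, sex or number of animals is given in the labels of the Lgr5-High and Cd24-Low groups. Titles of the Lgr5-High libraries name Lgr5, whereas their source and cell type labels name Lgr4, so the sorting marker is uncertain. These libraries hold small RNA, so Lgr5 and Cd24 themselves were not measured in them. Column names carry lane number 8 for both Lgr5-High libraries and no lane for the Cd24-Low libraries, and lane and group cannot be told apart. Nothing in the labels says that the libraries of a group came from separate mice, so p-values measure the spread between these samples, which may be technical. In sorted pools, fewer cells of a type and less RNA per cell cannot be told apart.

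A microRNA is cut from a hairpin transcript, and either arm of the hairpin, named 5p or 3p, can become the mature strand. The bases near its 5′ end, called the seed, pair with sites in messenger RNAs and lower their output, so microRNAs of one seed share many targets. Lgr5 is a receptor for R-spondins that marks the cycling stem cells at the base of the intestinal crypt. Cd24 is a surface glycoprotein used to sort crypt cells, with high levels known on Paneth and enteroendocrine cells. In the intestinal epithelium miR-192, miR-194 and miR-215 are known as abundant microRNAs, miR-375 and miR-7 as microRNAs of hormone-producing cells, and the let-7 family as brakes on growth genes such as Hmga2.

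The mature sequences on which the results turn are given 5′ to 3′ from RefSeq (GRCm38.p6), with the seed, bases 2 to 8, in capitals. Of the 139 members, 118 matched a RefSeq mature entry, which gave 104 distinct sequences. The first pair shared its seed, differed at 3 of 21 bases and moved in opposite directions. The sequence of miR-194-5p is made from hairpins at 2 loci. The miR-7 pair differed at 1 base.
mir-192-5p: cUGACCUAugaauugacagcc
mir-215-5p: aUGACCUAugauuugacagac
mir-194-5p (copies 1 and 2): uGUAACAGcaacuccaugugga
mir-7a-5p (copies 1 and 2): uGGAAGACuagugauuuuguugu
mir-7b-5p: uGGAAGACuugugauuuuguuguu
The let-7 sequences shared a seed too, and let-7b to let-7d rose while let-7i fell. Outside the seed, let-7b and let-7d each differed from let-7a at 2 bases, let-7c at 1, let-7g at 2 and let-7i at 4. Of these, only let-7d differed at base 1.
let-7a-5p: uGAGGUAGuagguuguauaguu
let-7b-5p: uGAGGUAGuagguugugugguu
let-7c-5p: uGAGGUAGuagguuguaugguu
let-7d-5p: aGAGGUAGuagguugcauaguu
let-7g-5p: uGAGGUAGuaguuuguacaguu
let-7i-5p: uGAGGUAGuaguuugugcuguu
Next come 2 members of the miR-200 family that differ at 2 of 22 bases, of which the first rose, and the minor 5p arm of the mir-25 hairpin, given for its ratio to the 3p arm.
mir-141-3p: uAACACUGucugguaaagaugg
mir-200a-3p: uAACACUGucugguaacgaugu
mir-25-5p: aGGCGGAGacuugggcaauugc
mir-25-3p: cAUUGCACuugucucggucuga

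Of the 139 members, 51 differed between the populations, 28 of them higher and 23 lower in Lgr5-High cells. A difference was called where limma's adjusted p (Benjamini-Hochberg) over all 236 tested rows was under 0.05, on the log2(RPMMM + 1) scale, which understates the change of low rows. Over those 236 rows, plain-named and suffixed, 93 were called, which is 39.4% in either direction, 16.9% higher and 22.5% lower. The groups did not overlap for 79 members, all 51 called ones among them, where 60.2% of all rows were apart. Among the called members, 42 differed by at least 1 on the log2 scale. The 88 members that were not called had differences from -1.82 (mir-155-5p) to 1.47 (mir-152-3p). The median difference was -0.12 over the members and -0.17 over all rows.

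Some members reached the 50 RPMMM line through 1 group. Of these, 5 had a Cd24-Low mean under the line, all called higher (mir-669c-5p, mir-25-5p, mir-92a-1-5p, mir-15b-5p and mir-342-5p), and 11 had a Lgr5-High mean under it, 3 called lower (mir-143-3p, mir-147-3p and mir-378-5p). A called member of this kind had to be higher in the group that carried it over the line, so nothing is supported with these 8. Their differences between Lgr5-High and Cd24-Low are given below without adjusted p-values. Among the 123 members above the line in both groups, 23 were called higher and 20 lower. Quantile normalization gave 41 increases and 21 decreases among the members, with a median over all rows of 0.10. Under median-of-ratios scaling there were 27 increases and 32 decreases, with a median of -0.29. Leaving out either Lgr5-High library left 29 called members in each case (13 higher and 16 lower without library 1, 15 and 14 without library 2). Leaving out Cd24-Low library 1 left 38 (17 higher, 21 lower), and leaving out Cd24-Low library 2 gave 70 (32 higher, 38 lower).

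**Figure D1:**
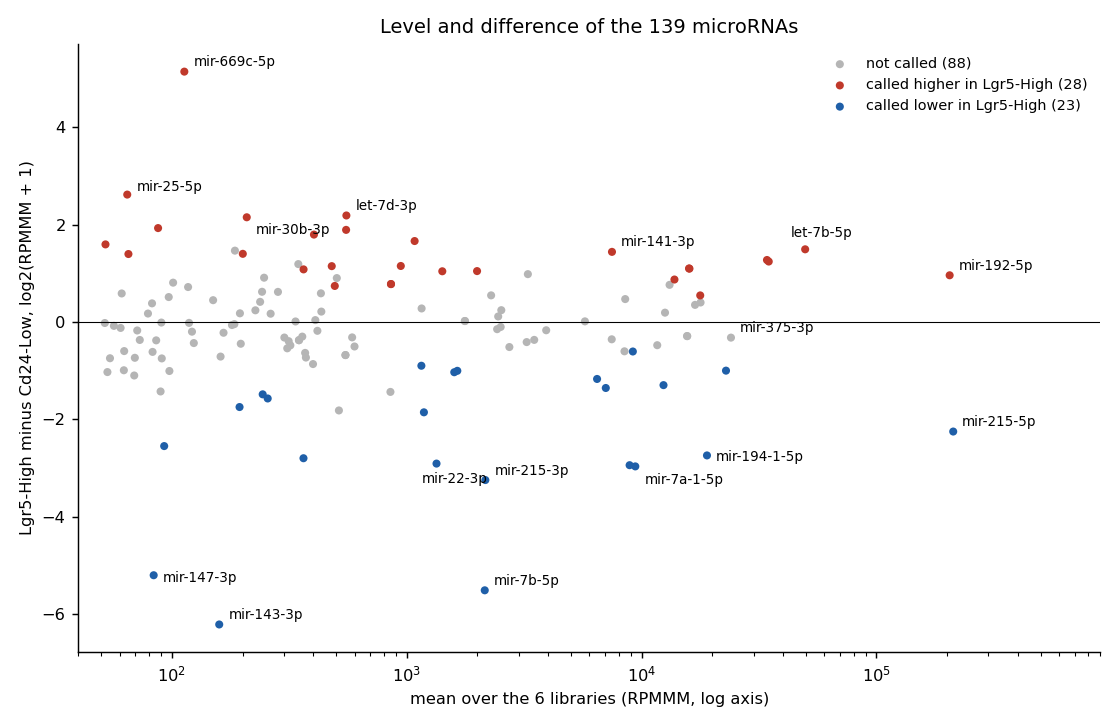
Each point is 1 of the 139 microRNAs, placed by its mean over the 6 libraries (RPMMM, log axis) and its difference between Lgr5-High and Cd24-Low cells on the log2(RPMMM + 1) scale; red and blue points were called. The called changes reach from -6.22 (mir-143-3p, which rests on a listed 0) to 5.15 (mir-669c-5p). Both of these members reached the inclusion line through 1 group only. Among called members above the line in both groups, the changes reach from -5.51 (mir-7b-5p) to 2.19 (let-7d-3p). At the far right, mir-192-5p and mir-215-5p lie on opposite sides of 0.

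The libraries of a group resembled each other more than those of the other group. Over the 139 members, log2 values of the Lgr5-High pair correlated at r = 0.978, the Cd24-Low pairs at 0.940 to 0.989, and pairs across the groups at 0.850 to 0.896. All points come from shared libraries, so these values are descriptions. The table gives no read totals. In the Cd24-Low libraries 79.2% to 82.1% of low values fell on evenly spaced steps (within 0.0051 RPMMM), as whole reads would give, but 19.6% and 24.5% did in the Lgr5-High libraries, so read depth is unknown there. Rows above 0 numbered 784 and 660 in the Lgr5-High libraries and 1090 to 1318 in the Cd24-Low libraries. In Lgr5-High library 1, 113 rows lay between 4.5 and 6 RPMMM, against 30 between 3 and 4.5 and 30 between 6 and 7.5.

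The miR-192, miR-194 and miR-215 microRNAs, among the most abundant of the epithelium, moved in both directions. Of the 7 members, 5 fell, 1 rose and 1 was not called, with a median difference of -1.86. Among all 236 tested rows, 22.5% were called lower and 16.9% higher. mir-215-5p was listed at 55475 and 62986 RPMMM in Lgr5-High libraries 1 and 2 and at 315223, 385958, 245506 and 209682 RPMMM in Cd24-Low libraries 1 to 4. Every Cd24-Low library was above both Lgr5-High libraries, and the fold between group means was 4.88. Its log2 difference was -2.25 (SE 0.24, adjusted p 0.000927).

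mir-192-5p, which carries the same seed, went the other way. Its level was 308211 and 298490 RPMMM in the Lgr5-High libraries, against 145510, 150074, 166100 and 162633 RPMMM in the Cd24-Low libraries. The lowest Lgr5-High value was far above the highest Cd24-Low value, the groups did not overlap, and the fold between means was 1.94. The log2 difference was 0.96 (SE 0.11, adjusted p 0.00112). Within a library the ratio of mir-192-5p to mir-215-5p was 5.56 and 4.74 in Lgr5-High cells and 0.462, 0.389, 0.677 and 0.776 in Cd24-Low cells. Such a ratio does not depend on how libraries are scaled. Their sum, the whole load of this seed among the members, moved less, at 36.4% and 36.1% of the Lgr5-High libraries and 46.1%, 53.6%, 41.2% and 37.2% of the Cd24-Low libraries. The sum was lower in both Lgr5-High libraries than in each Cd24-Low library, by about 1 percentage point from Cd24-Low library 4.

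Both strands from the mir-215 and mir-194-1 hairpins fell. These hairpins lie side by side on chromosome 1 (mir-194-1 at chr1:185313319-185313385, plus strand, mir-215 at chr1:185313581-185313692, plus strand, GRCm38), the first in an intron and the second in an exon of the antisense gene 2010103J01Rik. mir-194-1-5p, a strand known to rise as enterocytes mature, was listed at 3719.6 and 4122 RPMMM in Lgr5-High libraries 1 and 2 and at 31775, 29802, 22539.8 and 22055 RPMMM in Cd24-Low libraries 1 to 4. All 4 Cd24-Low values lay above the Lgr5-High values, by 6.77-fold between means, with a log2 difference of -2.74 (SE 0.20, adjusted p 0.000153). mir-215-3p and mir-194-1-3p differed by -3.25 and -1.86 on the log2 scale (adjusted p 0.000153 and 0.00342).

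The mir-192 and mir-194-2 hairpins lie together on chromosome 19 (mir-194-2 at chr19:6264643-6264728, plus strand, mir-192 at chr19:6264844-6264932, plus strand), in no annotated host gene on the same strand, and their members did not move as a unit. mir-192-5p rose as above. mir-194-2-5p was listed at 3196 and 3676 RPMMM in the Lgr5-High libraries, against 10429, 7753, 7669 and 9552 RPMMM in the Cd24-Low libraries. It was lower in both Lgr5-High libraries than in any Cd24-Low library (log2 difference -1.36, SE 0.19, adjusted p 0.00162, and -0.71 under quantile normalization, still called). mir-194-2-3p differed by -0.71 (SE 0.38, adjusted p 0.162) and was not called. It was called without Cd24-Low library 4 (0.045) and with the spread over all small RNA groups (0.0413).

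The 2 copies of mir-194-5p have one mature sequence, so how the authors' counting assigned its reads to each row is uncertain. The ratio of the copy 1 row to the copy 2 row was nevertheless not constant, at 1.16 and 1.12 in Lgr5-High cells and 3.05, 3.84, 2.94 and 2.31 in Cd24-Low cells. The 3p strands of the same hairpins differ at 4 of 22 bases and can be told apart. Their ratio, copy 1 to copy 2, was 3.94 and 3.71 in Lgr5-High and 8.10, 11.3, 6.28 and 8.90 in Cd24-Low cells, without overlap. Averaging the rows mir-194-1-5p and mir-194-2-5p gave a log2 difference of -2.26.

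**Figure D2:**
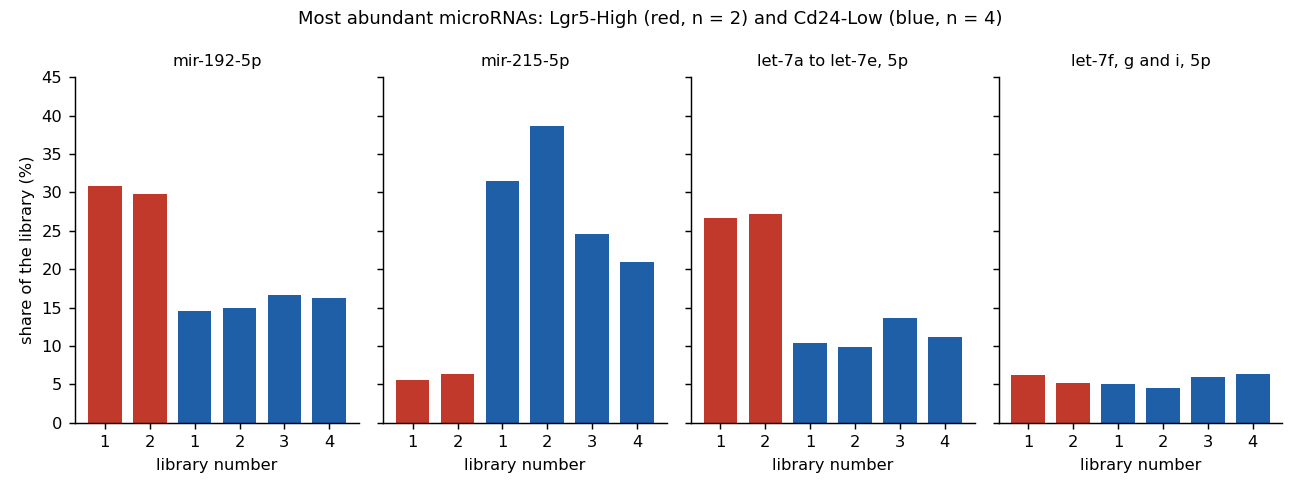
Bars give the share of each library (%) held by mir-192-5p, mir-215-5p and 2 sets of let-7 5p strands, with Lgr5-High libraries in red and Cd24-Low libraries in blue. mir-192-5p takes 30.8% and 29.8% of the Lgr5-High libraries against 14.6% to 16.6%, mir-215-5p 5.55% and 6.30% against 20.97% to 38.6%, and the let-7f, g and i bars overlap between the groups.

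By count of rows, the let-7 family held the most called increases of any list. Of 13 members, mir-98 included, 7 rose, 1 fell and 5 were not called, with a median of 0.90. Over all 236 tested rows, 16.9% were called higher. The 7 increases include 2 rows each for let-7a and let-7c, copies with the same mature name, so they stand for fewer distinct microRNAs. let-7b-5p was listed at 83646 and 90366 RPMMM in Lgr5-High libraries 1 and 2 and at 28716, 28018, 38753 and 29064 RPMMM in Cd24-Low libraries 1 to 4. Both Lgr5-High values were more than any Cd24-Low value, of which library 3 was the highest. The fold between means was 2.79 and the log2 difference 1.49 (SE 0.17, adjusted p 0.00103).

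let-7c-2-5p followed, at 55720.3 and 57147 RPMMM in the Lgr5-High libraries, against 22338, 20997, 28749.5 and 23935 RPMMM in the Cd24-Low libraries. Its groups were apart, with a log2 difference of 1.24 (SE 0.16, adjusted p 0.00141). The row of let-7c copy 1, which has the same mature sequence and whose reads may have been shared between the rows, differed by 1.27. Both let-7c differences dropped to 0.56 and 0.57 under quantile normalization and remained called. The let-7a rows of copies 1 and 2 each rose by 1.10 (adjusted p 0.00214). let-7d-5p rose by 0.87 (adjusted p 0.00558), and its call was lost without either Lgr5-High library (adjusted p 0.0555 without library 1 and 0.0541 without library 2).

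let-7d-3p, the opposite strand of the let-7d hairpin with a seed of its own, was listed at 913 and 1370.3 RPMMM in the Lgr5-High libraries, against 237, 260.3, 396 and 146 RPMMM in the Cd24-Low libraries. The groups were apart, and its log2 difference of 2.19 (SE 0.39, adjusted p 0.0039) was greater than that of let-7d-5p.

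The remaining let-7 members differed less or went down. let-7i-5p was the member of this seed that fell, at 6346 and 7227 RPMMM in the Lgr5-High libraries, against 9627, 8765, 12098 and 11047 RPMMM in the Cd24-Low libraries. All 4 Cd24-Low values were above the Lgr5-High values, with a log2 difference of -0.61 (SE 0.18, adjusted p 0.0326). That call was lost with 5 of the 6 libraries left out singly (adjusted p 0.221 and 0.104 without Lgr5-High library 1 or 2, and 0.07, 0.0558 and 0.0513 without Cd24-Low library 1, 3 or 4), with no filter (0.0788) and with the spread over all small RNA groups (0.0583). Quantile normalization took the difference to -0.059. let-7g-5p and mir-98-5p stood at -0.48 and -0.51 (SE 0.23 and 0.23), the let-7f rows at 0.35 and 0.402 (SE 0.19 each), and let-7e-5p at 0.90 (SE 0.37). None of these was called, but let-7g-5p and mir-98-5p were without Cd24-Low library 2 (adjusted p 0.0351 and 0.0301), let-7e-5p without Cd24-Low library 4 (0.0313) and mir-98-5p under median-of-ratios scaling (0.0398). Summed over the family's 5p strands, let-7 and mir-98 made up 33.1% and 32.6% of the Lgr5-High libraries and 15.8%, 14.6%, 19.995% and 17.9% of the Cd24-Low libraries. The part from let-7a to let-7e was 26.6% and 27.2% against 10.4%, 9.90%, 13.7% and 11.2%. The part from let-7f, g and i was 6.21% and 5.18% against 5.10%, 4.49%, 5.99% and 6.38%, and there the groups overlapped.

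By locus, the let-7 calls fell as follows. Mirlet7b and Mirlet7c-2, neighbours in exons of Lncppara on chromosome 15 (let-7b at chr15:85707319-85707403, plus strand), both rose. The cluster of Mirlet7a-1, Mirlet7f-1 and Mirlet7d on chromosome 13, in the long noncoding gene 6720427I07Rik, had 3 of 4 members called higher. Mir98 and Mirlet7f-2, in an intron of Huwe1 on the X chromosome, had none called of 2.

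The miR-7 microRNAs, known from neuroendocrine cells and pancreatic islets, had their 5p strands lower in Lgr5-High cells. mir-7b-5p was listed at 53.4 and 53 RPMMM in Lgr5-High libraries 1 and 2 and at 3547, 729, 2350.4 and 6170.5 RPMMM in Cd24-Low libraries 1 to 4. The Lgr5-High libraries were nearly equal, and the lowest Cd24-Low value, that of library 2, was still several times higher. The log2 difference was -5.51 (SE 0.73, adjusted p 0.00141), a 60.1-fold gap between means.

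mir-7a-1-5p was listed at 1569 and 1247 RPMMM in Lgr5-High libraries 1 and 2 and at 13842, 3795, 10847 and 25162 RPMMM in Cd24-Low libraries 1 to 4. Cd24-Low libraries spread over a wide range, with library 4 the highest and library 2 the lowest, and none overlapped the Lgr5-High values. Its log2 difference was -2.97 (SE 0.64, adjusted p 0.00893), and mir-7a-2-5p, with the same mature sequence, differed by -2.94. Both mir-7a calls were lost without Lgr5-High library 1 (adjusted p 0.0532 for each) or library 2 (0.0735 and 0.0758). The 3 loci are far apart: mir-7a-1 lies in an intron of Hnrnpk (chr13:58392779-58392886, minus strand), mir-7a-2 on chromosome 7 and mir-7b on chromosome 17.

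Other microRNAs of hormone-producing cells did not reach the threshold. On the list of miR-375, miR-7, miR-182, miR-183 and miR-96, 3 of 8 members fell, the 3 just given, none rose and the median was -0.87. Of these 3 rows, mir-7a-1-5p and mir-7a-2-5p have one mature sequence. Among all 236 tested rows, 22.5% were called lower. mir-375-3p, known from islets and enteroendocrine cells and named in the series title, was listed at 20943 and 18945 RPMMM in the Lgr5-High libraries, against 29718, 15047, 24169 and 35422 RPMMM in the Cd24-Low libraries. Cd24-Low values lay on both sides of the Lgr5-High values (log2 difference -0.32, SE 0.32, adjusted p 0.43). The mir-375-3p difference turned on single libraries, at -0.56 (adjusted p 0.0362, a call) without Cd24-Low library 2 and -0.15 (adjusted p 0.688) without library 4. It was -0.71 (adjusted p 0.0973) under quantile normalization. mir-182-5p, at 0.47 (SE 0.17, adjusted p 0.056), and mir-183-5p, at 0.28 (SE 0.22), were not called. Quantile normalization called both (adjusted p 0.00663 and 0.0295), and mir-182-5p was called without Cd24-Low library 4 (0.0348). Across the Cd24-Low libraries mir-375-3p and mir-7a-1-5p had the same order, library 2 lowest, then 3, 1 and 4, and mir-7b-5p had it too. Summed, the 14 rows of this list took 3.56% and 3.36% of the Lgr5-High libraries and 6.87%, 3.09%, 5.62% and 10.1% of the Cd24-Low libraries, so library 2 was below the Lgr5-High pair.

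The miR-200 family, which represses the Zeb1 and Zeb2 genes and marks epithelium, was present in both populations at several percent of each library (5.91% and 5.69% in Lgr5-High, 3.29% to 5.16% in Cd24-Low). Of 7 members, 2 rose and 5 were not called, with a median of 0.19, where 16.9% of all 236 tested rows were called higher. mir-141-3p was listed at 13942 and 11862 RPMMM in the Lgr5-High libraries, against 4473, 3866, 5388 and 5385 RPMMM in the Cd24-Low libraries. Each Lgr5-High value was over every Cd24-Low value, by 2.7-fold between means (log2 difference 1.44, SE 0.20, adjusted p 0.0016). mir-200c-3p, from the same cluster on chromosome 6, differed by 0.55 (SE 0.18, adjusted p 0.0473). The mir-200c-3p call was lost without Lgr5-High library 1 (adjusted p 0.239), Lgr5-High library 2 (0.165) or Cd24-Low library 1 (0.113). It was lost too with no filter (0.0999), median-of-ratios scaling (0.0607), suffixed rows summed (0.0565) and the spread over all small RNA groups (0.0549). mir-200a-3p, which shares the seed of mir-141-3p but lies in the other cluster, on chromosome 4, differed by 0.19 (SE 0.21), and none of the 5 members of that cluster was called.

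**Figure D3:**
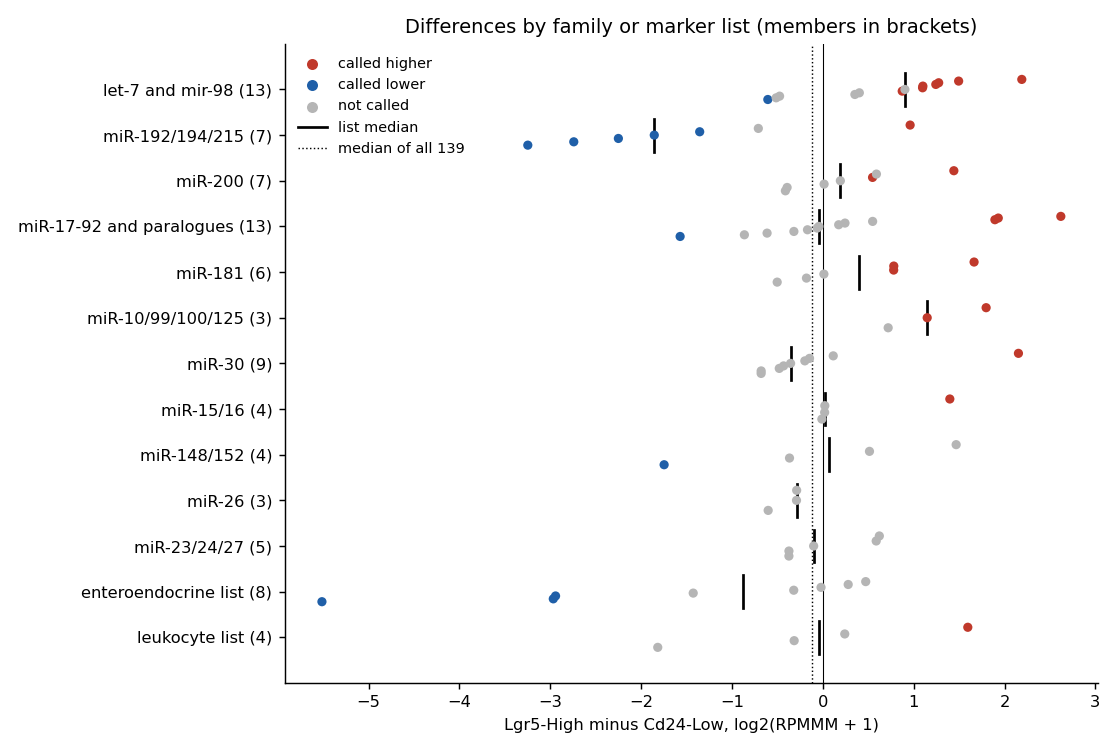
Each point is the difference of 1 member on the log2(RPMMM + 1) scale, grouped by family or marker list, coloured where called; vertical bars are list medians and the dotted line is the median of all 139 members. The let-7 median lies at 0.90 and the median of miR-192, miR-194 and miR-215 at -1.86, while the 3 miR-7 points stand apart at the left of the enteroendocrine list.

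miR-17-92 and its paralogues, which Myc activates and which promote entry into the cell cycle, were mostly not called. Of 13 members, 3 rose, 1 fell and 9 were not called, with a median of -0.04 that became 0.53 under quantile normalization. Over all 236 tested rows, 16.9% were called higher and 22.5% lower. Of the 3 increases, mir-25-5p and mir-92a-1-5p reached the 50 RPMMM line only through the Lgr5-High group. mir-25-5p was listed at 107 and 180.2 RPMMM in the Lgr5-High libraries, against 23.3, 13.2, 49.6 and 14.3 RPMMM in the Cd24-Low libraries. Its groups were apart, and it differed by 2.62 on the log2 scale (SE 0.65), a call that was lost without Lgr5-High library 1. mir-92a-1-5p differed by 1.93. The mir-92a-1-5p call was lost without Lgr5-High library 1, Lgr5-High library 2 or Cd24-Low library 1. Both of these are minor arms, opposite abundant 3p strands that were not called (mir-25-3p -0.17, mir-92a-1-3p 0.55), although mir-92a-1-3p was called without Cd24-Low library 3 (adjusted p 0.0309).

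The third increase of that list was the row mir-92a-2-3p, at 1212 and 916 RPMMM in the Lgr5-High libraries, against 251, 240.1, 467 and 227 RPMMM in the Cd24-Low libraries. Its log2 difference was 1.89 (SE 0.34, adjusted p 0.00372). It has the same mature sequence as mir-92a-1-3p, so the division of reads between them is uncertain, and the mean of both rows differed by 0.82 (adjusted p 0.0948), which is not a call. mir-20a-5p, whose seed is that of mir-17-5p, fell by 1.57 (adjusted p 0.014). Its adjusted p was 0.0557 without Lgr5-High library 1 and 0.0975 without library 2, 0.0841 under quantile normalization and 0.0553 with the spread over all small RNA groups. mir-17-5p itself differed by -0.86 (SE 0.37, adjusted p 0.0988), and was called without Cd24-Low library 2 (0.0118) and under median-of-ratios scaling (0.0402).

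Several families of moderate abundance held a few members that rose. In the miR-181 family, known from lymphocyte development, 3 of 6 rose and the median was 0.40. Among all 236 tested rows, 16.9% were called higher. mir-181c-5p was listed at 1928 and 2001 RPMMM in the Lgr5-High libraries, against 646, 420.1, 619 and 873 RPMMM in the Cd24-Low libraries. The Lgr5-High libraries were alike and above all Cd24-Low libraries (log2 difference 1.66, SE 0.29, adjusted p 0.00371). mir-181a-1-5p and mir-181a-2-5p, of one mature sequence, rose by 0.78 each, a call that was lost without Lgr5-High library 1 (adjusted p 0.165), Lgr5-High library 2 (0.0886) or Cd24-Low library 1 (0.0626), with no filter (0.0799) and under median-of-ratios scaling (0.0546).

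Both miR-10 microRNAs, which lie in the Hox gene clusters, rose. mir-10b-5p was listed at 854 and 675 RPMMM in the Lgr5-High libraries, against 163, 276, 244 and 204 RPMMM in the Cd24-Low libraries. The groups were apart, with a log2 difference of 1.80 (SE 0.28, adjusted p 0.00214). mir-10a-5p rose by 1.15 (adjusted p 0.0167), but by 0.75 without Lgr5-High library 1 (adjusted p 0.16), and its adjusted p was 0.0508 without Cd24-Low library 1 and 0.0794 with the spread over all small RNA groups. On the list of miR-10, miR-99, miR-100 and miR-125 these were 2 of 3 members, where 16.9% of all 236 tested rows were called higher.

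Single members changed in 3 further families. In the miR-30 family mir-30b-3p rose by 2.15 (SE 0.34, adjusted p 0.00245) and the other 8 of 9 were not called. In the miR-15 and miR-16 family mir-15b-5p, which reached the line only through Lgr5-High, differed by 1.398. The other 3 of 4 were not called. The mir-15b-5p call was lost without Lgr5-High library 1 or 2 and without Cd24-Low library 1 or 3. Among miR-148 and miR-152, mir-148b-3p fell by 1.75 (adjusted p 0.00893), which became -1.17 (adjusted p 0.0672) without Lgr5-High library 1. mir-152-3p, of the same seed, had a difference of 1.47 with a wide error (SE 0.70, adjusted p 0.128, and 0.0332 without Cd24-Low library 2).

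No member was called in the lists of miR-23/24/27 (5 members), miR-26 (3), miR-29 (1), miR-34/449 (1), miR-130/301 (3) and miR-221/222 (2). The nearest of these to a call was mir-26b-5p, at -0.60 (SE 0.21, adjusted p 0.0557). It was called without Cd24-Low library 2 (0.016) and under median-of-ratios scaling (0.0353). No row of the imprinted Dlk1-Dio3 region reached the 50 RPMMM line, and its 45 rows summed to 14.4 and 0 RPMMM in the Lgr5-High libraries and to between 77.0 and 161 RPMMM in the Cd24-Low libraries.

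**Figure D4:**
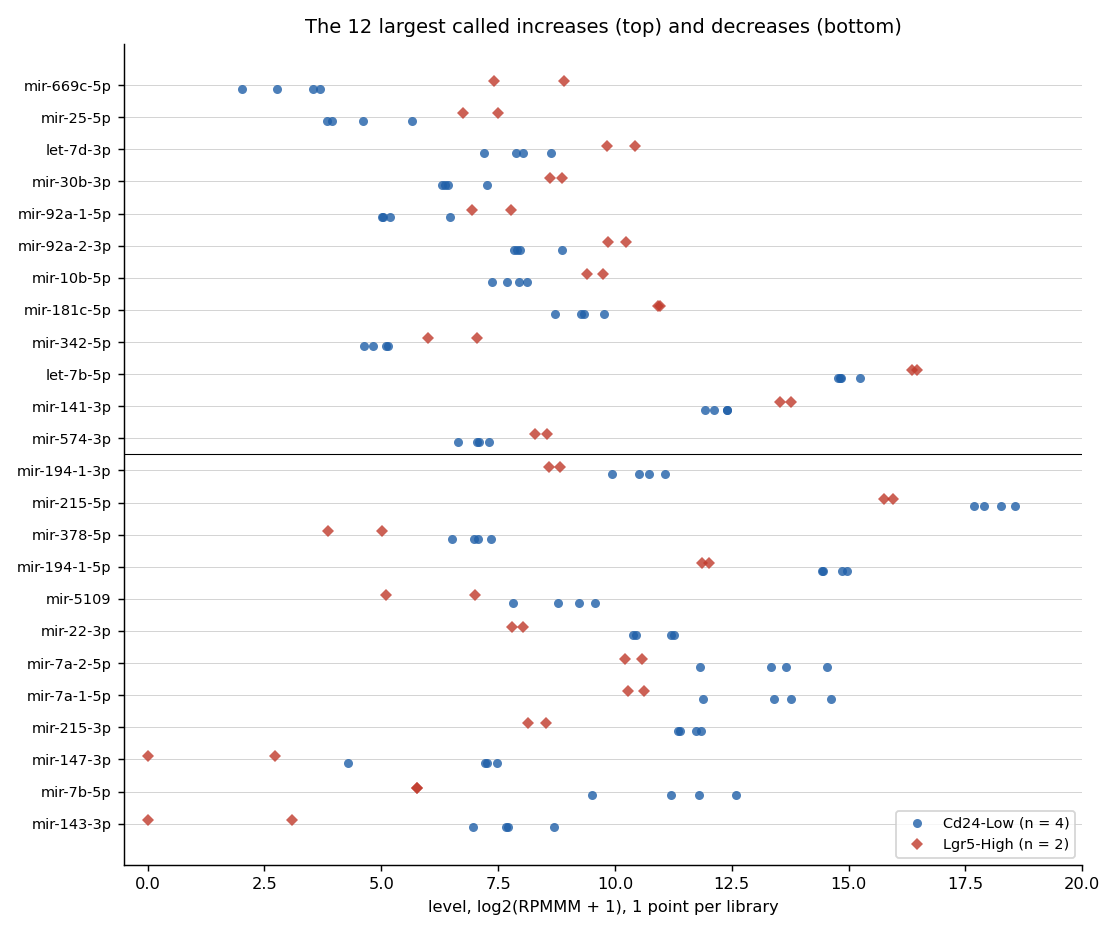
Levels on the log2(RPMMM + 1) scale are shown for the 12 members with the largest called increase (top) and the 12 with the largest called decrease (bottom), 1 point per library. The 24 were chosen among called members whose groups did not overlap, so the Lgr5-High diamonds and the Cd24-Low circles are apart by choice. At the bottom, 2 rows have a Lgr5-High point at 0.

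The largest increase was that of mir-669c-5p, one of the microRNAs of a rodent cluster in an intron of Sfmbt2 (chr2:10509296-10509404, plus strand). It was listed at 477 and 169.6 RPMMM in the Lgr5-High libraries, against 10.7, 11.98, 3.07 and 5.85 RPMMM in the Cd24-Low libraries. The Lgr5-High values differed from each other, and both were more than 10 times the highest Cd24-Low value. Its log2 difference was 5.15 (SE 0.77). Among 38 rows assigned to that cluster by family name alone, it was the only one to pass the line, through the Lgr5-High group. Positions of the other rows were not checked. The 38 rows together summed to 629 and 238 RPMMM in Lgr5-High and to 6.67 to 20.5 RPMMM in Cd24-Low cells. Of the Lgr5-High sums, mir-669c-5p held 477 and 169.6 RPMMM.

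Further called increases outside the lists were mir-574-3p at 1.402, mir-423-5p at 1.15, mir-328-3p at 1.08, mir-151-3p at 1.05, mir-425-5p at 1.04 and mir-151-5p at 0.74. mir-574-3p was listed at 371 and 312 RPMMM in the Lgr5-High libraries, against 131, 156, 135 and 98.4 RPMMM in the Cd24-Low libraries. Its groups were apart (SE 0.27, adjusted p 0.00554, and 0.0536 without Lgr5-High library 1). The other 5 each lost the call without Lgr5-High library 2 (adjusted p 0.0983 to 0.252), and mir-423-5p then differed by 0.75. All but mir-328-3p lost it without Lgr5-High library 1 (0.0532 to 0.118) and all but mir-425-5p without Cd24-Low library 1 (0.0579 to 0.103), and mir-151-5p also without Cd24-Low library 3 (0.0677). With no filter, mir-423-5p, mir-328-3p and mir-151-5p were not called (0.0552, 0.0552 and 0.14), nor was mir-151-5p with suffixed rows summed (0.0558).

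Called decreases outside the lists included abundant microRNAs. mir-378-3p, from an intron of Ppargc1b, the gene of a coactivator of mitochondrial genes, was listed at 5944 and 6655 RPMMM in the Lgr5-High libraries, against 14729, 15419, 15802 and 15891 RPMMM in the Cd24-Low libraries. Both groups were tight and apart (log2 difference -1.30, SE 0.14, adjusted p 0.000927). Its opposite strand, mir-378-5p, which reached the line only through Cd24-Low, differed by -2.55, and by -1.68 under quantile normalization. mir-22-3p stood at 263 and 221 RPMMM in the Lgr5-High libraries, against 2341, 2464, 1345 and 1407 RPMMM in the Cd24-Low libraries. All Cd24-Low values were more than 5 times the higher Lgr5-High value, and the log2 difference was -2.91 (SE 0.31, adjusted p 0.000927).

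mir-21-5p, an abundant microRNA that represses Pdcd4, was listed at 13863 and 12851 RPMMM in the Lgr5-High libraries, against 20301, 21019, 30809 and 38536 RPMMM in the Cd24-Low libraries. Cd24-Low libraries 3 and 4 were the highest, and the groups did not overlap (log2 difference -0.999, SE 0.28, adjusted p 0.0237). That call was lost without Lgr5-High library 1 (adjusted p 0.106), Lgr5-High library 2 (0.139) or Cd24-Low library 3 (0.0532). mir-31-5p, reported in the field as a microRNA of intestinal stem cells, was lower in Lgr5-High cells, at 3769.8 and 3283 RPMMM in the Lgr5-High libraries, against 8888, 7518, 7331 and 8021 RPMMM in the Cd24-Low libraries. Its groups were apart (log2 difference -1.17, SE 0.16, adjusted p 0.00162), but the adjusted p was 0.105 after quantile normalization and 0.712 with the spread taken over all small RNA groups.

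mir-103-1-3p and mir-103-2-3p, from introns of the Pank3 and Pank2 genes and with one mature sequence, differed by -1.03 and -1.003, and lost the call without Lgr5-High library 2 (adjusted p 0.0577 and 0.0647). mir-203-3p fell by 0.90 (adjusted p 0.0244), with an adjusted p of 0.191 without Lgr5-High library 2, 0.062 without Cd24-Low library 1 0.0558 without Cd24-Low library 3, 0.0583 with no filter and 0.0952 with the spread over all small RNA groups. mir-5117-5p fell by 1.49 (adjusted p 0.00476), and by 0.98 under quantile normalization. mir-5109 fell by 2.80 (adjusted p 0.00964), and by 1.85, with the call lost, without Lgr5-High library 1, in which it was lowest. Neither mir-5117-5p nor mir-5109 could be placed in GENCODE (GRCm38), and no RefSeq sequence was used for them.

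mir-147-3p reached the line only through Cd24-Low, at 5.57 and 0 RPMMM in the Lgr5-High libraries, against 147, 178, 18.5 and 153 RPMMM in the Cd24-Low libraries. Cd24-Low library 3 lay far below the other 3, and Lgr5-High library 2 was listed at 0. The log2 difference of -5.20 (SE 1.16) rests on these low values. It was -3.12 with a pseudocount of 10, -2.95 after quantile normalization and -3.85 without Lgr5-High library 2. The call was lost after quantile normalization and without Lgr5-High library 2.

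Markers of other cell types were compared next. mir-143-3p, known from smooth muscle and fibroblasts, was listed at 7.48 and 0 RPMMM in the Lgr5-High libraries, against 209, 413, 202 and 123 RPMMM in the Cd24-Low libraries. It was listed at 0 in Lgr5-High library 2 and above 100 RPMMM in every Cd24-Low library. It reached the line only through Cd24-Low. Its log2 difference of -6.22 (SE 0.87) rests on a listed 0. It became -4.10 with a pseudocount of 10, where the difference of mir-7b-5p, -5.30, was larger in size. The 17 rows of the mesenchymal or muscle list summed to 10.6 and 30.1 RPMMM in the Lgr5-High libraries and to 449, 854, 446 and 282 RPMMM in the Cd24-Low libraries, which is at most 0.0854% of a library. mir-145-5p, from the same transcript as mir-143, was at 0 in the Lgr5-High pair, with 17.6 to 59.1 RPMMM in Cd24-Low cells. In the crypt and villi libraries of the same table, which were dissected and not sorted by their labels, mir-143-3p had medians of 22305 and 11684 RPMMM. The part of such cells in the other differences was not tested.

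Leukocyte markers come next. Of 12 leukocyte rows 4 were members and 1 was called, mir-342-5p, which reached the line only through Lgr5-High and differed by 1.60. It lost the call without Cd24-Low library 1, 3 or 4. mir-142-3p and mir-223-3p, which define leukocytes, were at 0 in the Lgr5-High pair, with no more than 2.62 RPMMM in any Cd24-Low library. mir-142-5p, from the same hairpin as mir-142-3p, was at 0 and 16.5 RPMMM in the Lgr5-High libraries, against 22.99, 35.2, 31.9 and 3.46 RPMMM in the Cd24-Low libraries, and the groups overlapped. mir-150-5p was at most 5.44 RPMMM in Lgr5-High and 11.98 RPMMM in Cd24-Low libraries. mir-155-5p stood at 34.6 and 29.8 RPMMM in the Lgr5-High libraries, against 41.6, 2896, 63.8 and 22.2 RPMMM in the Cd24-Low libraries, so that library 2 alone was high, and the difference was not called (adjusted p 0.417). The leukocyte list summed to 738 and 1031 RPMMM in Lgr5-High and 610 to 3507 RPMMM in Cd24-Low cells. The 2 endothelial rows summed to 15.1 and 20.5 against 23.4 to 60.4 RPMMM, without overlap, and the 5 red cell rows to 28.8 and 25.0 against 15.4 to 118 RPMMM, with overlap. There was no member on either list, and the part of these cells in the differences was not tested.

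The balance between the 2 arms of a hairpin was compared next, as log2((5p + 1)/(3p + 1)), a value that hardly depends on library scaling. Of 21 hairpins with both arms at 50 RPMMM or more, 12 differed (57.1%, limma adjusted p under 0.05 over the 21), 6 towards the 5p arm and 6 towards the 3p arm in Lgr5-High cells. Since each arm entered the comparison of levels, these are not independent of it. In 4 of the called hairpins 1 arm reached the line through 1 group only: the 5p arms of mir-25 and mir-92a-1 through Lgr5-High, and mir-378-5p and mir-7a-2-3p through Cd24-Low. In mir-25, mir-92a-1 and mir-378 the ratio shifted the way this selection favours, so their differences are descriptions and no test is given for them. Of the 17 hairpins with both arms at the line in both groups, 8 were called, 4 in each direction. The number of calls was 4 without Lgr5-High library 2 and 7 without Cd24-Low library 1.

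In the mir-25 hairpin, which lies in the cell cycle gene Mcm7 on chromosome 5, the arm ratio was -5.15 and -4.19 in the Lgr5-High libraries and -7.27, -7.67, -6.60 and -8.30 in the Cd24-Low libraries. The 3p arm dominated everywhere, but by less in both Lgr5-High libraries, by 2.79 between group means. mir-92a-1 shifted the same way, with ratios of -4.35 and -3.83 in the Lgr5-High libraries and -5.64, -5.64, -5.24 and -5.39 in the Cd24-Low libraries. Its groups did not overlap, and the means differed by 1.38. mir-28, mir-215, mir-148a and mir-423 also moved towards the 5p arm, by 1.05, 1.00, 0.88 and 0.74 (adjusted p 0.0285, 0.0178, 0.0285 and 0.0416).

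Towards the 3p arm, mir-30b crossed over. Its ratio was -2.09 and -1.85 in the Lgr5-High libraries and 0.59, 0.16, -0.29 and 1.07 in the Cd24-Low libraries, so the 3p arm was the more abundant in both Lgr5-High libraries and the 5p arm in 3 of 4 Cd24-Low libraries (-2.35 ± 0.38 (SE), adjusted p 0.00102). mir-30b-5p itself differed by -0.20 (SE 0.35). The hairpin mir-7a-1 had ratios of 4.495 and 5.06 in the Lgr5-High libraries and 8.13, 6.58, 7.49 and 8.69 in the Cd24-Low libraries, lower in Lgr5-High cells (-2.95 ± 0.51 (SE), adjusted p 0.00102). Its 5p strand fell, as given above, while mir-7a-1-3p stood at 68.6 and 36.4 RPMMM in the Lgr5-High libraries, against 48.3, 38.6, 59.5 and 59.7 RPMMM in the Cd24-Low libraries, with overlapping groups. mir-7a-2, let-7d and mir-194-1 shifted by -1.52, -1.32 and -0.89 (adjusted p 0.00409, 0.0178 and 0.0373), and the mir-378 means differed by -1.25. Because mir-7a-5p has one sequence from 2 hairpins, both mir-7a ratios share reads of the 5p strand.

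Leaving out a library did not end the call of mir-30b or, in the fits that held it, mir-7a-1. The ratios of mir-28, mir-215, mir-148a, mir-423, mir-7a-2, let-7d and mir-194-1 were not called without Lgr5-High library 2 (adjusted p 0.0585 to 0.129). Without Lgr5-High library 1, mir-194-1 and mir-28 lost the call (adjusted p 0.0863 and 0.157). Without Cd24-Low library 1, mir-148a, mir-194-1, mir-215, mir-28 and mir-423 did (0.0573 to 0.155), and without library 3, mir-148a, mir-28 and mir-423 (0.0532 to 0.0602). mir-423 also lost it without Cd24-Low library 2 (0.131) or 4 (0.0674), and mir-194-1 without library 4 (0.0674). The mir-378 difference was -1.91 without Lgr5-High library 1 and -0.59 without library 2.

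**Figure D5:**
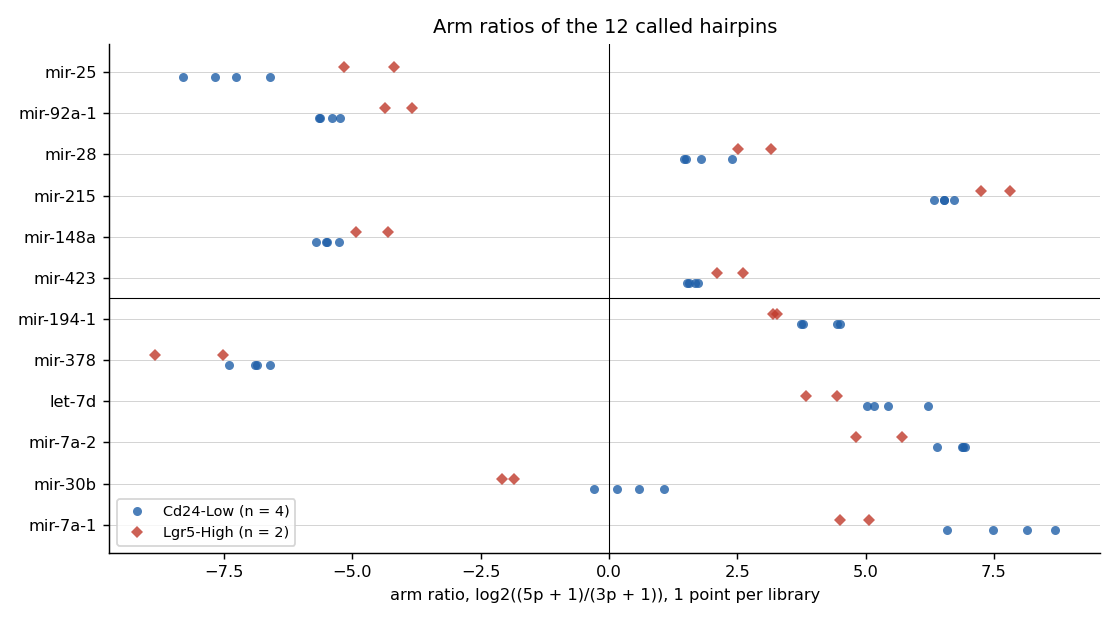
Each row shows the arm ratio, log2((5p + 1)/(3p + 1)), of 1 of the 12 called hairpins, 1 point per library, with shifts towards the 5p arm above the line and towards the 3p arm below it. The mir-30b ratio lies at -2.09 and -1.85 in Lgr5-High libraries and between -0.29 and 1.07 in Cd24-Low libraries.

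Calls were then counted by position and by seed. Of 22 genomic clusters (hairpins within 10 kb on one strand, 63 members), 12 held called members in 1 direction, 2 in both directions and 8 none. The mixed clusters were that of Mir192 and Mir194-2 and the miR-17-92 cluster on chromosome 14. In the miR-17-92 cluster the call higher was that of mir-92a-1-5p, which reached the line only through Lgr5-High. Nothing is supported with it. The only calls in the clusters of Mir15b (mir-15b-5p) and of Mir25 (mir-25-5p) were of this kind too. Of 20 seeds carried by at least 2 sequences, 10 had called members in 1 direction, 2 in both (those of let-7 and of miR-192 and miR-215) and 8 none. A cluster or seed with 1 called row can only count in 1 direction, and many had just 1. Some called rows are also copies of one mature sequence. These counts therefore do not show whether neighbours or microRNAs of one seed moved together. Over all 236 tested rows, 39.4% were called in either direction. Among the members, 135 could be placed in GENCODE (GRCm38), 105 of them in a host gene on the same strand, 68 in a protein-coding one.

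The same microRNAs were then examined in dissected crypts and villi of the same table, 4 libraries each, which share no sample with the sorted cells. Of 239 rows tested there, 112 were called (46.9%), 36.4% higher and 10.5% lower in crypts, and among the 124 members tested 54 were called. Of 26 members called higher in Lgr5-High cells and tested, 16 were higher and 1 was lower in crypts. Of 22 called lower, 9 were lower and 1 was higher in crypts. The difference between the 2 contrasts was itself tested, and 38 of 131 members were called, where 30.2% of all 255 rows were. The 38 include members that reached the line between the sorted cells through 1 group only, such as mir-143-3p and mir-669c-5p.

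mir-192-5p was the 1 member that rose in Lgr5-High cells and fell in crypts, at 27693 ± 6358 RPMMM in crypts and 57305 ± 9253 RPMMM in villi (SD, n = 4 each). Its contrasts differed by 2.03 (adjusted p 0.000114). mir-215-5p was lower in both, with 55231 ± 19943 RPMMM in crypts and 250740 ± 60367 RPMMM in villi (SD, n = 4 each), and its contrasts, -2.25 and -2.22, differed by -0.03 (adjusted p 0.955). In crypts and villi the ratio of mir-192-5p to mir-215-5p was at most 0.711 and 0.275. The next highest medians after Lgr5-High (5.15) were in Sox9-EGFP Low cells, with 4 libraries in each group. They were 2.73 in mice labelled chow-fed, where 1 library is named HFD in its column, 2.70 in conventionalized and 2.42 in germ-free mice. Sox9-EGFP Negative cells had 0.245.

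let-7b-5p was higher in crypts as well (1.09, adjusted p 0.0016), and so was mir-669c-5p, at 265 ± 58.3 RPMMM in crypts and 34.1 ± 20.7 RPMMM in villi (SD, n = 4 each). The mir-669c-5p contrasts differed by 2.09. No test is given for this value, since mir-669c-5p reached the line between the sorted cells only through Lgr5-High. mir-7b-5p was low in both dissected fractions, at 78.3 ± 26.98 RPMMM in crypts and 100.5 ± 32.5 RPMMM in villi (SD, n = 4 each), a difference of -0.37 (adjusted p 0.395). Its contrasts differed by -5.14 (adjusted p 0.000424), and its median was 7408 RPMMM in Sox9-EGFP Low cells labelled chow-fed and 13301 RPMMM in those of germ-free mice. mir-375-3p, not called between the sorted cells, was higher in crypts (1.42, adjusted p 0.000954), and its contrasts differed by -1.74 (adjusted p 0.00484). mir-141-3p, higher in Lgr5-High cells, differed by -0.27 between crypts and villi, and by 1.71 between the contrasts (adjusted p 0.000424).

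Near the inclusion line, mir-139-3p, mir-342-5p and mir-7a-1-3p were just inside, with means over the 6 libraries of 53.2, 52.2 and 51.8 RPMMM. mir-125a-5p, mir-130a-3p and mir-218-2-5p were just outside, at 48.1, 45.7 and 44.8 RPMMM. Base composition moved weakly with the differences: over the 104 distinct sequences, GC content correlated with the Lgr5-High minus Cd24-Low difference at r = 0.24 (Spearman's rho 0.20). Within groups it correlated with the difference between the Lgr5-High libraries (2 minus 1) at r = 0.28 and with Cd24-Low library 3 minus 4 at r = 0.40. These points share libraries, and the part of base composition in the results was not tested.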

How the data were processed

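Small RNA libraries were prepared with the TriLink CleanTag kit, per the labels' protocols. The authors deposited one table in RPMMM, a reads-per-million (RPM) unit, with no read totals; RPM values of each library sum to about 1000000. For small RNA, the sources used here do not state the aligner, the counter or what the suffixed rows mean. The submitters' processing notes list Cell Ranger, STAR, Salmon, DESeq2 and the build mm10, with no role for small RNA. Of the table's columns, 30 were mapped to samples by name and 4 that match no sample were not used.

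Rows averaging 50 RPMMM or more across the 6 libraries were fitted with limma 3.58.1 (R 4.3.3; lmFit, eBayes with trend) on log2(RPMMM + 1), two-sided, with Benjamini-Hochberg adjustment over all 236 rows. Arm ratios and the contrast with crypts and villi were fitted with limma too, and the code was checked on simulated data. Hairpins were placed with GENCODE (GRCm38). Members and lists were chosen with earlier results of these data known. Members named are the 10 most abundant, the 12 largest called changes without overlap in each direction, those on a list and mir-375-3p. The 5 largest called arm ratios in each direction and rows next to the 50 RPMMM line were named too. Other called members and hairpins were named after their values were seen. Alternatives were the pseudocount, the filter, the scaling, the handling of suffixed rows, the source of the spread, a replicate block, leaving out each library and, chosen after seeing the data, averaging copies of one mature name.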

Additional observations from a re-analysis of the deposited data

Results flagged for a closer look

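For 6 of 101 microRNAs tested, 1 of the 4 Cd24-Low libraries stood apart from the other 3 by Dixon's criterion, where chance alone gives about 1 in 20. mir-155-5p was 2895.9 RPMMM in library 2 and 22.2 to 63.8 RPMMM in the others. The other 5 had library 3 highest: let-7b-5p at 38753 RPMMM (others 28018 to 29064), mir-30b-3p at 153.0 (77.5 to 84.7), mir-92a-1-5p at 87.2 (31.4 to 35.5), mir-92a-2-3p at 467 (227 to 251) and mir-27b-5p at 85.2 (40.3 to 43.3). Without Cd24-Low library 3 the called differences of this group became 1.60 for let-7b-5p, 2.38 for mir-30b-3p and 2.13 for mir-92a-2-3p, all still called. That of mir-92a-1-5p, which reached the line only through Lgr5-High, became 2.28. Leaving out the highest Cd24-Low library can only widen such an increase.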

How the results depend on the processing

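All 51 called members kept their direction under each alternative run, 24 were still called in all 6 fits that left out 1 library (12 higher, 12 lower) and 22 in these and every other alternative; 3 (mir-25-5p, mir-342-5p and mir-669c-5p) were under the filter in at least 1 of the 6. Of 88 members not called, 39 were called under at least 1 alternative and 29 changed direction, none of which differed by more than 0.45 as reported. Leaving out 1 library gave 29 to 70 called members (13 to 32 higher, 14 to 38 lower), 54 to 113 called rows, 4 to 12 called arm ratios and 27 to 39 members whose contrast differed from crypt minus villi. A fit with 1 Lgr5-High library assumes that it varies like the Cd24-Low group. The calls kept under every alternative include those of mir-143-3p and mir-378-5p. These 2 members reached the line only through Cd24-Low, so nothing is supported with them here either. With no filter 186 rows were called, of 1861 tested, and with suffixed rows summed 57 of 149. mir-25-3p reversed to 0.53 under quantile normalization and 0.11 with the replicate block, mir-30b-5p to 0.35 and 0.035, and mir-7a-1-3p to 0.64 and 0.21 and, with suffixed rows summed, 0.028; mir-28-5p reversed to -0.084 under median-of-ratios scaling. Without 1 library these ranged over -0.32 to -0.063, -0.44 to 0.042, -0.15 to 0.43 and -0.047 to 0.13. The causes were not tested. With the replicate number as a block, 65 members were called and, by limma, 0 arm ratios (7 at an unadjusted p under 0.05); deviations of same-numbered libraries correlated at 0.22 and -0.09, and no label ties the numbers. Count tests with edgeR and DESeq2 were not run, as whole reads could not be recovered. Read depth is unknown for the Lgr5-High libraries, so no limit can be set for rows listed at 0.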
